A study of Mus musculus with 54 samples.

Results

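Knockout mouse embryonic stem (ES) cells carrying the names KO-i and KO-j were compared with each other under retinoic acid (RA), in 4 of the 54 samples of the series. Both are derivatives of 46C, a mouse ES line with a GFP reporter in Sox1, and both carry a 58 kb deletion of Haunt, a long noncoding RNA locus beside the HOXA genes. Cells of both names were held for 1 day in serum-free N2B27 medium with LIF and 2 inhibitors. They were then moved to the same medium without these and with 2 µM RA, and RNA was taken at day 2 and at day 4. KO-i and KO-j thus differ in name only, as far as the labels go, and each has 1 library per day. The labels do not say what i and j stand for, whether each line is 1 clone, or whether the libraries came from separate cultures. Wild-type (WT) 46C cells named WT-1 and WT-2, without the deletion and treated alike, served for comparison at both days. Genes were taken where they lay on an autosome and reached 1 FPKM (fragments per kilobase of transcript, scaled to sequencing depth) in 2 or more of the 4 knockout libraries, which gave 14273 of 36890 autosomal entries and of 38363 entries in all. Differences are KO-i minus KO-j on the log2(FPKM + 1) scale, a scale that understates the change of low genes.

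ES cells hold their pluripotent state through a network of transcription factors, with Pou5f1, Sox2 and Nanog at its core and Klf2, Klf4, Klf5, Esrrb and Tbx3 marking its naive form. Fibroblast growth factor (FGF) signalling through ERK moves cells out of the naive state towards the primed epiblast, which expresses Pou3f1. RA binds nuclear receptors that switch on HOX genes, the enzymes that break RA down and, in ES cells as in germ cells, the meiotic gene Stra8.

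Depth, estimated from the step between low values, was about 9.05 M reads for KO-i against 16.4 M for KO-j on day 2, and 15.0 M for KO-i against 12.3 M for KO-j on day 4, so KO-i at day 2 was the shallowest. Haunt, listed as Gm15055 (mm9 chromosome 6, 52052948 to 52062531), read 1.13 and 3.08 FPKM in KO-i at days 2 and 4, and 0 and 0.447 FPKM in KO-j. WT-1 and WT-2 read 128 and 142 FPKM at day 2 and 31.8 and 40.6 FPKM at day 4. Both names were thus far below WT, and where the deleted span starts and ends was not used here. Summed over 8 naive ES cell markers, the level at day 2 was 255 FPKM for KO-i against 546 FPKM for KO-j, and at day 4 it was 125 FPKM for KO-i against 179 FPKM for KO-j, so pluripotent cells' transcripts were present in all 4 libraries. Markers of fibroblasts and feeders (4 genes) summed to 6.07 and 7.06 FPKM in KO-i and to 5.88 and 8.73 FPKM in KO-j. In bulk samples fewer cells of a type and less RNA per cell cannot be told apart.

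Seen over all genes, KO-i and KO-j differed in the same way at both days more often than WT-1 and WT-2 did, but no single gene passed the test. In limma with day as a block, 0 of 14273 genes passed an adjusted p of 0.05 (0% called), and the smallest adjusted p was 0.180. At an unadjusted p under 0.05 there were 1106 genes higher (7.75%) and 1069 lower (7.49%) in KO-i, 15.2% in all. Between WT-1 and WT-2 the same test called 1 of 14323 genes (0.00698%) and had 6.71% at an unadjusted p under 0.05. The called gene was Cdkn1c, an imprinted inhibitor of cyclin-dependent kinases, at 28.3 and 36.7 FPKM in WT-1 and 3.52 and 5.33 FPKM in WT-2. The direction was the same at both days for 63.3% of genes between KO-i and KO-j, against 51.7% between WT-1 and WT-2. Of all genes tested, 34.1% were higher and 29.2% lower in KO-i at both days. The counts given below for each list are to be read beside these shares. Across the 9426 genes with a mean of at least 5 FPKM, the differences of day 2 and day 4 correlated at r = 0.386 between KO-i and KO-j (rho = 0.429), and at r = 0.107 (rho = 0.0596) over 9350 genes between WT-1 and WT-2. These correlations run across genes of the same few libraries, and genes are not independent replicates. The fit has 1 residual degree of freedom, which is the change of the KO-i minus KO-j difference between the days. Each SE and p-value of this fit thus rests on that change and a spread borrowed across genes, not on replicates of a day. With 2 libraries per name, each gene below is described by its values and none of them is called.

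**Figure D1:**
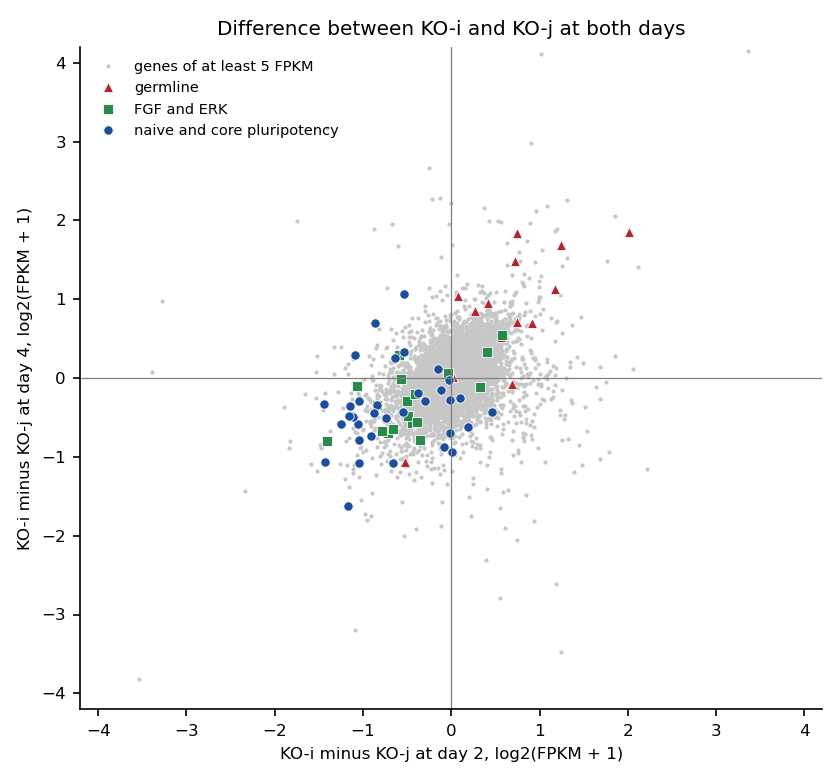
Difference KO-i minus KO-j on the log2(FPKM + 1) scale at day 2 (x axis) and day 4 (y axis) for the 9426 genes of at least 5 FPKM (grey) and for all tested members of 3 groups of genes (coloured). Most pluripotency and FGF genes lie in the lower left and 12 of 14 germline genes in the upper right.

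Of the 9426 genes, 144 were higher and 162 lower in KO-i by more than 0.5 at both days, against 81 and 32 for WT-1 and WT-2. Outside chromosome 1, whose genes are described below, 98 were higher and 157 lower by this measure. In most of the 144 and 162 genes KO-i was the name that stood away from WT. This distance from WT was not split by chromosome. KO-i lay farther than KO-j from the WT mean in 128 of the 144 higher genes (88.9%) and in 128 of the 162 lower ones (79.0%), against 67.9% of all 9426. Relative to WT, the higher genes had a median of +0.68 for KO-i and -0.07 for KO-j, and the lower genes -0.71 for KO-i and +0.11 for KO-j.

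Most pluripotency genes tested (14 of 20 naive and 11 of 15 core genes) were lower in KO-i than in KO-j at both days, and the other 6 and 4 differed in sign between the days. No member passed the test. Nanog, a homeobox factor of the pluripotency network, read 59.1 and 8.02 FPKM in KO-i at days 2 and 4, against 134 and 26.8 FPKM in KO-j. WT-1 and WT-2 read 118 and 177 FPKM at day 2 and 10.8 and 12.2 FPKM at day 4. At day 2 KO-i was thus the lowest of the 4 libraries and KO-j lay between the WT libraries, while at day 4 KO-j was the highest of the 4. The mean difference of Nanog was -1.40 (SE 0.137, limma adjusted p = 0.180). Pou5f1, which encodes OCT4, read 53.6 and 11.4 FPKM in KO-i, against 111 and 25.2 FPKM in KO-j, with 120 and 154 FPKM in WT at day 2 and 21.2 and 22.0 FPKM at day 4 (-1.06, SE 0.0862, adjusted p = 0.180). Esrrb, an orphan nuclear receptor of the naive network, read 21.6 and 3.76 FPKM in KO-i, against 60.1 and 9.00 FPKM in KO-j (-1.25, SE 0.136, adjusted p = 0.180). For Pou5f1 and Esrrb KO-i was the lowest of the 4 names at both days.

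The Krüppel-like factors Klf2 and Klf5 showed the same order at day 2 and came closer at day 4. Klf2 read 21.2 and 4.97 FPKM in KO-i at days 2 and 4, against 40.6 and 8.90 FPKM in KO-j, and WT-1 and WT-2 read 59.2 and 47.6 FPKM at day 2 (-0.82, SE 0.115, adjusted p = 0.180). Klf5 read 72.0 and 50.7 FPKM in KO-i, against 149.9 and 62.5 FPKM in KO-j (-0.67, SE 0.193, adjusted p = 0.253). The Klf5 difference was -1.05 at day 2 and -0.30 at day 4. Pou3f1, a POU factor of the primed epiblast and neural cells, read 5.25 and 0.717 FPKM in KO-i, against 9.37 and 0.583 FPKM in KO-j (-0.31, SE 0.270, adjusted p = 0.626). Its difference was thus negative at day 2 only, and at day 4 all 4 names lay under 1 FPKM.

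Over the whole naive list, 20 of 21 genes were tested and 14 were lower in KO-i at both days, against 29.2% of all genes, while 0 were higher at both (all genes, 34.1%). Its median was -0.89 at day 2 and -0.44 at day 4, beside +0.02 at each day for all genes tested, and 10 members had an unadjusted p under 0.05. Among them were Tbx3 (23.9 and 19.8 FPKM in KO-i against 50.6 and 30.3 in KO-j) and Zfp57, a zinc finger protein that guards imprints (74.0 and 40.4 FPKM in KO-i against 161 and 57.2 in KO-j). Tfcp2l1 went the other way at day 4 (15.4 and 11.9 FPKM in KO-i against 22.7 and 9.19 in KO-j). Of 15 core pluripotency genes, 11 were lower in KO-i at both days and 0 higher, with medians of -0.55 and -0.43. Besides Pou5f1, the member that differed most was L1td1, an RNA-binding protein of ES cells (20.7 and 5.27 FPKM in KO-i against 43.7 and 9.77 in KO-j). Sox2 read 43.6 and 11.4 FPKM in KO-i, against 69.4 and 25.3 FPKM in KO-j. Without the chromosome 1 genes, described below, the medians over both days were -0.67 for the naive list and -0.48 for the core list.

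**Figure D2:**
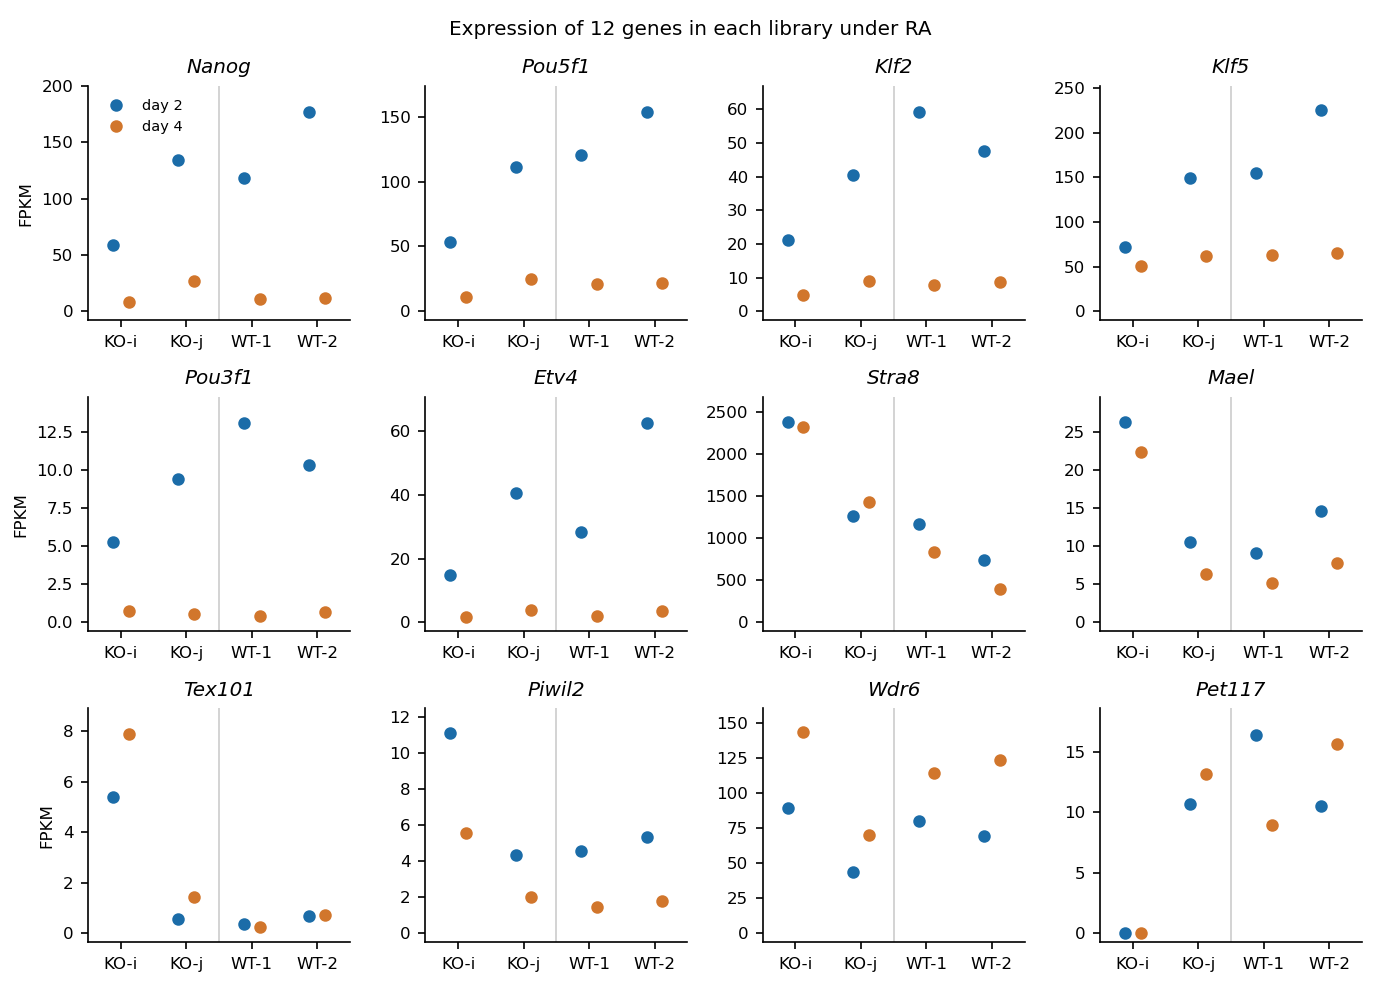
FPKM of 12 genes (panels) in each library, by name (x axis, KO-i, KO-j, WT-1, WT-2) at day 2 and day 4 (colours). Each point is 1 library; Nanog and Pou5f1 at day 2 are lowest in KO-i, and Stra8, Mael, Tex101 and Piwil2 are highest in KO-i at both days.

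Most genes of the FGF and ERK list were lower in KO-i at both days, though none passed the test. Of 18 genes tested, 13 were lower in KO-i at both days and 2 higher, with medians of -0.50 at day 2 and -0.31 at day 4, and 8 were lower and 1 higher at an unadjusted p under 0.05. Among the targets, Etv4, an ETS factor, read 14.7 and 1.73 FPKM in KO-i at days 2 and 4, against 40.6 and 3.76 FPKM in KO-j, and 28.4 and 62.4 FPKM in WT-1 and WT-2 at day 2 (-1.10, SE 0.189, adjusted p = 0.200). Its relative Etv5 read 35.0 and 5.02 FPKM in KO-i, against 60.9 and 8.56 FPKM in KO-j (-0.72, SE 0.104, adjusted p = 0.188). Dusp6, a phosphatase that switches off ERK, read 42.0 and 16.9 FPKM in KO-i, against 67.0 and 26.9 FPKM in KO-j. KO-i stood below KO-j in each of these 3 genes at both days. Of the receptors, Fgfr1 read 25.8 and 24.0 FPKM in KO-i, against 43.2 and 39.5 FPKM in KO-j and 36.9 to 47.9 FPKM in the WT libraries (-0.71, SE 0.0880, adjusted p = 0.180). Fgfr2 was also lower (10.0 and 17.8 FPKM in KO-i against 14.0 and 26.9 in KO-j), while Fgfr3 was higher (1.99 and 2.78 FPKM in KO-i against 1.00 and 1.59 in KO-j). The early response gene Egr1 was higher, at 4.75 and 9.52 FPKM in KO-i against 3.36 and 7.36 FPKM in KO-j.

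Among genes of the primed epiblast the median was lower at day 2 than at day 4, and the Nodal genes did not shift as a group. Of 11 primed genes tested, 6 were lower in KO-i at both days and 1 higher, with medians of -0.44 at day 2 and -0.11 at day 4. Besides Etv4, which is also in the FGF list, Zic5 differed most (2.70 and 2.10 FPKM in KO-i against 6.06 and 3.34 in KO-j). Lefty1, a secreted inhibitor of Nodal, read 5.32 FPKM in KO-i at day 2, against 60.1 FPKM in KO-j and 47.1 and 76.9 FPKM in WT-1 and WT-2. At day 4 it read 3.27 FPKM in KO-i, against 1.17 FPKM in KO-j and 2.48 and 1.57 FPKM in WT-1 and WT-2 (-1.15, SE 1.01, adjusted p = 0.625). Tdgf1, the Nodal co-receptor CRIPTO, read 1.42 and 0.820 FPKM in KO-i, against 5.57 and 1.28 FPKM in KO-j. Over the 15 Nodal and TGF-beta genes, 4 were lower and 2 higher at both days and 9 differed in sign, with medians of -0.08 at day 2 and -0.06 at day 4.

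Most genes of the germ line list were higher in KO-i at both days, though none passed the test. Of 14 tested, 12 were higher in KO-i at both days, against 34.1% of all genes, 1 was lower (Prdm1) and 1 differed in sign (Rec8). The medians were +0.70 at day 2 and +0.90 at day 4. Stra8, described with the RA response below, is among the 12. At an unadjusted limma p under 0.05, 9 were higher and 1 lower (all genes, 7.75% and 7.49%). Mael, which acts in the silencing of transposons by piRNAs, read 26.4 and 22.4 FPKM in KO-i at days 2 and 4, against 10.5 and 6.30 FPKM in KO-j, and 5.18 to 14.6 FPKM in the WT libraries (+1.46, SE 0.148, adjusted p = 0.180). Tex101, a surface protein of germ cells, read 5.39 and 7.87 FPKM in KO-i, against 0.579 and 1.45 FPKM in KO-j and 0.235 to 0.741 FPKM in the WT libraries (+1.94, SE 0.182, adjusted p = 0.180). For both genes the KO-i libraries lay above all 6 others. Piwil2, a piRNA-binding protein, read 11.1 and 5.55 FPKM in KO-i, against 4.36 and 2.00 FPKM in KO-j (+1.15, SE 0.151, adjusted p = 0.180). Further members of the piRNA machinery were the helicase gene Ddx4 (8.89 and 9.74 FPKM in KO-i against 5.01 and 2.85 in KO-j) and Tdrd1, which encodes a Tudor protein (3.03 and 5.21 FPKM in KO-i against 1.40 and 0.733 in KO-j). Tex19.1, expressed in germ cells and ES cells and not in the list, read 85.4 and 63.2 FPKM in KO-i, against 47.7 and 27.7 FPKM in KO-j and 26.9 to 56.1 FPKM in the WT libraries (+1.00, SE 0.113, adjusted p = 0.180). Mael lies on chromosome 1, whose genes were higher in KO-i as a whole, and without it the median of the germline list over both days was +0.68. Sohlh2, a transcription factor of germ cells counted among the 12, differed little (38.6 and 33.9 FPKM in KO-i against 38.0 and 33.7 in KO-j). Its sign changed under 2 alternatives of the processing.

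The promoters of Mael, Tex101 and Tex19.1, germ cell genes with large differences, are shown because promoters of such genes are known to be rich in CG dinucleotides and to be silenced by DNA methylation in somatic cells. They run from 250 bases before to 50 after the RefSeq start, in GRCm38.p6, and the CG dinucleotides are in capitals. These genes were chosen after their values were seen.
Mael (chr1:166238695-166238994, minus strand): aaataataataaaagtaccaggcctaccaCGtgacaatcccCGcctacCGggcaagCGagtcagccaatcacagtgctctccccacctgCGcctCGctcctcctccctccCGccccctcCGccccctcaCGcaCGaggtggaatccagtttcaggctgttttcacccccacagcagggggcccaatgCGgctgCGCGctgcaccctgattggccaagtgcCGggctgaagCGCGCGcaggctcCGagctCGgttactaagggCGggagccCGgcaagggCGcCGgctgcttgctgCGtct
Tex101 (chr7:24672001-24672300, minus strand): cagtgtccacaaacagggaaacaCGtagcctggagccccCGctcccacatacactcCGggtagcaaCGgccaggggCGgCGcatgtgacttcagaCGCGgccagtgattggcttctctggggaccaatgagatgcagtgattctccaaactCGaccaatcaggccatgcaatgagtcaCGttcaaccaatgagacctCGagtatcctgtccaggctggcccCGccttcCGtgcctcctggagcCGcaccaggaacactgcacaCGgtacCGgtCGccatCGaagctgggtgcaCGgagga
Tex19.1 (chr11:121145893-121146192, plus strand): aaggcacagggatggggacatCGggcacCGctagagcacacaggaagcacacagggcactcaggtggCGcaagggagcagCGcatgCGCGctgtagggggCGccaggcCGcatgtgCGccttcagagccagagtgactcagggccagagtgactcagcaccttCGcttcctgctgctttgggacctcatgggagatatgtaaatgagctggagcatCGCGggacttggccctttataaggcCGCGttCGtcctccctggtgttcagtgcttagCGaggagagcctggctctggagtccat
Mael has 24 CG dinucleotides in this window, a number that 20% of the 32851 promoters of the table reach, Tex101 has 19 (28.1% reach it) and Tex19.1 has 16 (33% reach it). The median promoter has 7. Of the 14 germline genes, 12 matched the table, each with 10 to 38 CG in its richest promoter. Of all promoters, 43.5% have 10 or more. For Tdrd1, which has 3 promoters of 3 to 25 CG, the richest was taken, while this share counts every promoter singly. No methylation was measured in these libraries, and the count describes the sequence alone.

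Enzymes that make or clear DNA methylation differed less than the germline list by their median, which was -0.20 at each day. Dnmt1, which copies methylation at replication, read 96.8 and 102 FPKM in KO-i, against 96.6 and 93.0 FPKM in KO-j. Tet1 and Tet2, which oxidise methylcytosine, were lower in KO-i, at 5.55 and 4.03 against 11.7 and 5.64 FPKM in KO-j for Tet1 (-0.68, adjusted p = 0.247), and at 10.5 and 8.53 against 20.3 and 12.0 FPKM in KO-j for Tet2 (-0.67, adjusted p = 0.217). Dnmt3b, a methylase that sets new marks, read 15.0 and 9.16 FPKM in KO-i, against 20.7 and 10.9 FPKM in KO-j. Over these 10 genes, 6 were lower in KO-i at both days and 1 was higher. At an unadjusted limma p under 0.05, 4 were lower and 0 higher (all genes, 7.49% and 7.75%).

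The median of the RA response did not keep its sign between the days. Stra8 and enzymes that degrade RA were higher in KO-i at both days. Of 25 genes tested, 7 were higher and 6 lower at both days and 12 differed in sign. The medians were +0.23 at day 2 and -0.06 at day 4. At an unadjusted limma p under 0.05, 6 were higher and 2 lower (all genes, 7.75% and 7.49%). Stra8, which starts meiosis under RA, read 2376 and 2315 FPKM in KO-i at days 2 and 4, against 1261 and 1430 FPKM in KO-j and 395 to 1165 FPKM in the WT libraries (+0.80, SE 0.113, adjusted p = 0.180). KO-i was thus the highest and both knockout names were above all WT libraries. Cyp26a1, which degrades RA, read 618 and 1359 FPKM in KO-i, against 428 and 995 FPKM in KO-j (+0.49, SE 0.0899, adjusted p = 0.201), and its relative Cyp26b1 47.6 and 277 FPKM in KO-i, against 37.2 and 170.1 FPKM in KO-j (+0.52, SE 0.113, adjusted p = 0.209). The receptors did not follow. Rarg was lower, at 38.3 and 23.7 FPKM for KO-i against 72.6 and 29.2 FPKM for KO-j (-0.60), and Rarb read 18.3 and 51.4 FPKM for KO-i against 12.6 and 53.1 FPKM for KO-j.

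HOX genes are targets of RA, and the HOXA genes neighbour the Haunt locus. Gm15051, an RNA of this region also known as Halr1, read 172 and 162 FPKM in KO-i, against 195 and 176 FPKM in KO-j. Hoxa5 read 22.7 and 99.3 FPKM in KO-i, against 22.2 and 118 FPKM in KO-j, and Hoxa4 11.1 and 55.1 FPKM in KO-i, against 11.9 and 48.9 FPKM in KO-j. Outside HOXA, Hoxb8 was lower in KO-i (56.7 and 86.0 FPKM, against 67.3 and 112 FPKM in KO-j) and Hoxb1 higher (136 and 58.5 FPKM, against 117 and 46.9 FPKM in KO-j). Of 29 HOX genes tested, 3 were higher and 9 lower at both days and 17 differed in sign. Hoxd8 was low (2.83 and 4.25 FPKM in KO-i against 3.37 and 7.00 in KO-j). Of the 11 genes listed for Haunt and its surroundings, 3 were higher, Haunt and 2700086A05Rik (0.533 and 5.27 FPKM in KO-i against 0.0978 and 4.46 in KO-j) among them, and 6 lower at both days.

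Lineage lists had no direction in common. For extraembryonic endoderm, which RA also induces, 8 of 19 genes were higher and 4 lower at both days. Among all genes tested the shares were 34.1% and 29.2%. The medians of this list were +0.39 at day 2 and -0.01 at day 4. The laminin genes of basement membrane were higher in KO-i, with Lama1 at 36.3 and 155 FPKM against 25.1 and 110.01 FPKM in KO-j and Lamc1, on chromosome 1, at 115 and 246 FPKM against 95.1 and 156 FPKM in KO-j. Gata6, a regulator of this lineage, was lower (7.52 and 14.9 FPKM in KO-i against 14.7 and 20.0 in KO-j), as was the lipid carrier Apoe (153 and 47.2 FPKM in KO-i against 227 and 87.7 in KO-j). Summed over 5 markers of this tissue, the level was 38.4 and 86.6 FPKM in KO-i against 42.0 and 95.8 FPKM in KO-j. The contractile genes Acta2 and Tagln were higher in KO-i at day 2, at 4.12 against 0.825 FPKM in KO-j for Acta2 and 11.2 against 2.92 FPKM in KO-j for Tagln. At day 4 they read 100.5 against 87.7 FPKM in KO-j and 170 against 184 FPKM in KO-j.

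Among neural genes, Stmn2, a tubulin-binding protein of neurons, read 22.0 and 4.23 FPKM in KO-i, against 51.2 and 10.2 FPKM in KO-j (-1.14, SE 0.107, adjusted p = 0.180). Tubb3, neuronal tubulin, read 7.54 and 1.55 FPKM in KO-i, against 16.0 and 3.89 FPKM in KO-j. Both genes were lower at day 4 than at day 2 in all 4 names. Of the 4 neuron markers these 2 were lower in KO-i at both days. Map2 was higher at both (4.16 and 4.79 FPKM in KO-i against 2.98 and 4.05 in KO-j). Elavl3 differed in sign (2.02 and 1.22 FPKM in KO-i against 2.36 and 0.999 in KO-j). Over 20 neural progenitor and neuron genes tested, 10 were lower and 2 higher in KO-i at both days, and 4 neural progenitor markers summed to 27.3 and 49.4 FPKM in KO-i against 22.0 and 50.1 FPKM in KO-j. Adhesion genes were lower in KO-i in 9 of 16 and higher in 2. Cldn4, a tight junction protein, read 11.5 and 12.4 FPKM in KO-i, against 31.4 and 20.4 FPKM in KO-j, and E-cadherin, Cdh1, 35.5 and 18.4 FPKM in KO-i, against 55.3 and 36.9 FPKM in KO-j. Mesendoderm, trophoblast and fibroblast lists had 6, 9 and 9 genes tested, of which 0, 0 and 4 were higher and 3, 5 and 1 lower at both days. Among all genes tested the shares were 34.1% and 29.2%, and counts this small say little about direction. The mesendoderm median was -0.03 at day 2 and -0.12 at day 4, the trophoblast median -0.02 and -0.66, and the fibroblast median +0.01 and +0.17. Of the trophoblast genes, the keratin Krt8 read 8.61 and 28.5 FPKM in KO-i, against 10.3 and 55.8 FPKM in KO-j.

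Genes of other signals differed less as groups. Of 18 canonical Wnt genes, 8 were lower and 3 higher in KO-i at both days, with Notum, a secreted enzyme that inactivates Wnt proteins, at 7.16 and 1.04 FPKM in KO-i against 14.9 and 2.84 in KO-j, and the ligand Wnt5b at 1.84 and 2.28 FPKM in KO-i against 3.24 and 4.97 in KO-j. Of 12 LIF and STAT3 genes, 6 were lower and 4 higher, and Myc, a growth regulator, read 5.21 and 14.3 FPKM in KO-i, against 7.401 and 22.2 FPKM in KO-j. Gbx2, a homeobox gene that STAT3 switches on, read 22.7 and 18.8 FPKM in KO-i, against 24.1 and 35.4 FPKM in KO-j. Of 10 Notch genes, 5 were lower and 3 higher, and both the target Hes1 (13.0 and 14.5 FPKM in KO-i against 21.8 and 20.4 in KO-j) and the receptor Notch3 (22.1 and 16.9 FPKM in KO-i against 27.7 and 27.4 in KO-j) were lower.

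Genes of the 2-cell-like state, a rare state of ES cell cultures marked by Zscan4, went opposite ways at the 2 days. Zscan4f read 139 FPKM in KO-i at day 2, against 78.6 FPKM in KO-j and 136 and 92.6 FPKM in WT-1 and WT-2. At day 4 it read 15.3 FPKM in KO-i, against 26.6 FPKM in KO-j and 38.8 and 12.1 FPKM in WT-1 and WT-2. The KO-i and KO-j values thus lay within the range of WT at day 4, and the Zscan4 genes are near-identical copies whose reads could be split between them. Usp17le read 54.1 and 4.88 FPKM in KO-i, against 19.5 and 3.90 FPKM in KO-j. Over 12 such genes 4 were higher at both days and 0 lower, with medians of +0.84 at day 2 and -0.35 at day 4.

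Genes of growth control were somewhat lower in KO-i, most of all p53 targets at day 4. Of 21 p53 targets, 12 were lower and 1 was higher in KO-i at both days, with medians of -0.19 and -0.43. Bbc3, which encodes the death factor PUMA, read 17.4 and 20.0 FPKM in KO-i, against 24.5 and 47.9 FPKM in KO-j and 19.5 to 33.4 FPKM in the WT libraries. Psrc1, a spindle protein, read 124 and 55.4 FPKM in KO-i, against 152 and 116 FPKM in KO-j and 72.2 to 127 FPKM in the WT libraries. At day 4 KO-i was below and KO-j above both WT libraries for both genes. Cdkn1a, the cell cycle inhibitor p21, read 51.4 and 52.4 FPKM in KO-i, against 63.5 and 84.6 FPKM in KO-j. Of 25 proliferation genes, 16 were lower and 4 higher at both days. Ccne1, cyclin E1, was lower (40.3 and 30.8 FPKM in KO-i against 49.2 and 45.8 in KO-j) and Ccne2 higher (1.93 and 2.20 FPKM in KO-i against 1.04 and 0.785 in KO-j). The D cyclins Ccnd2 (20.6 and 21.5 FPKM in KO-i against 28.8 and 35.2 in KO-j) and Ccnd3 (126 and 82.8 FPKM in KO-i against 208 and 112 in KO-j) were lower.

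For histone genes the median was near 0 at day 2 (-0.02) and negative at day 4 (-0.39). Of 59 tested, 24 were lower and 9 higher at both days, and 14 were lower and 1 higher at an unadjusted p under 0.05. Hist1h2ag read 13.2 and 3.60 FPKM in KO-i, against 25.5 and 11.6 FPKM in KO-j and 11.0 to 43.8 FPKM in the WT libraries (-1.18, SE 0.173, adjusted p = 0.190). Hist1h4b was listed at 0 and 1.31 FPKM in KO-i, against 1.78 and 3.98 FPKM in KO-j. H2afj, a variant with a poly(A) tail, read 15.3 and 8.21 FPKM in KO-i, against 27.02 and 16.9 FPKM in KO-j. Most histone messages of the replication phase lack such a tail and the libraries were made from poly(A) RNA, and the copies of a histone family are near-identical, so the values of single copies are uncertain.

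Of 24 imprinted genes tested, 14 were lower and 7 higher in KO-i at both days, and 7 were lower and 2 higher at an unadjusted p under 0.05. Nnat, a paternally expressed membrane protein gene, read 1.21 and 1.75 FPKM in KO-i, against 3.85 and 7.56 FPKM in KO-j and 2.18 to 7.65 FPKM in the WT libraries (-1.39, SE 0.212, adjusted p = 0.192). Ddc, a decarboxylase, read 5.90 and 1.65 FPKM in KO-i, against 10.4 and 4.49 FPKM in KO-j. Peg10, derived from a retrotransposon, read 290.4 and 364 FPKM in KO-i, against 363 and 650.4 FPKM in KO-j, and lies on chromosome 6. Igf2r, expressed from the maternal copy, was higher, at 36.5 and 52.3 FPKM in KO-i against 27.9 and 39.6 FPKM in KO-j. The 1 gene called between WT-1 and WT-2, Cdkn1c, is imprinted too, but the imprinted list was not compared between them. Cdkn1c read 17.3 and 25.8 FPKM for KO-i, against 19.3 and 29.0 FPKM for KO-j.

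Of genes known from the interferon response, the class I light chain B2m was higher in KO-i, at 55.0 and 121 FPKM against 33.2 and 75.6 FPKM in KO-j (+0.69, SE 0.0803, adjusted p = 0.180). Ifitm3, a membrane protein also known from early germ cells, was lower, at 58.9 and 37.8 FPKM against 125 and 62.2 FPKM in KO-j (-0.89, SE 0.117, adjusted p = 0.180), and so was Ifitm1, at 25.5 and 11.9 FPKM against 60.4 and 18.4 FPKM in KO-j. Of 16 such genes 6 were higher and 5 lower at both days. Ribosomal protein, respiratory chain and zinc finger protein genes had 12, 25 and 84 members higher and 18, 25 and 78 lower at both days, of 69, 78 and 245 tested.

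**Figure D3:**
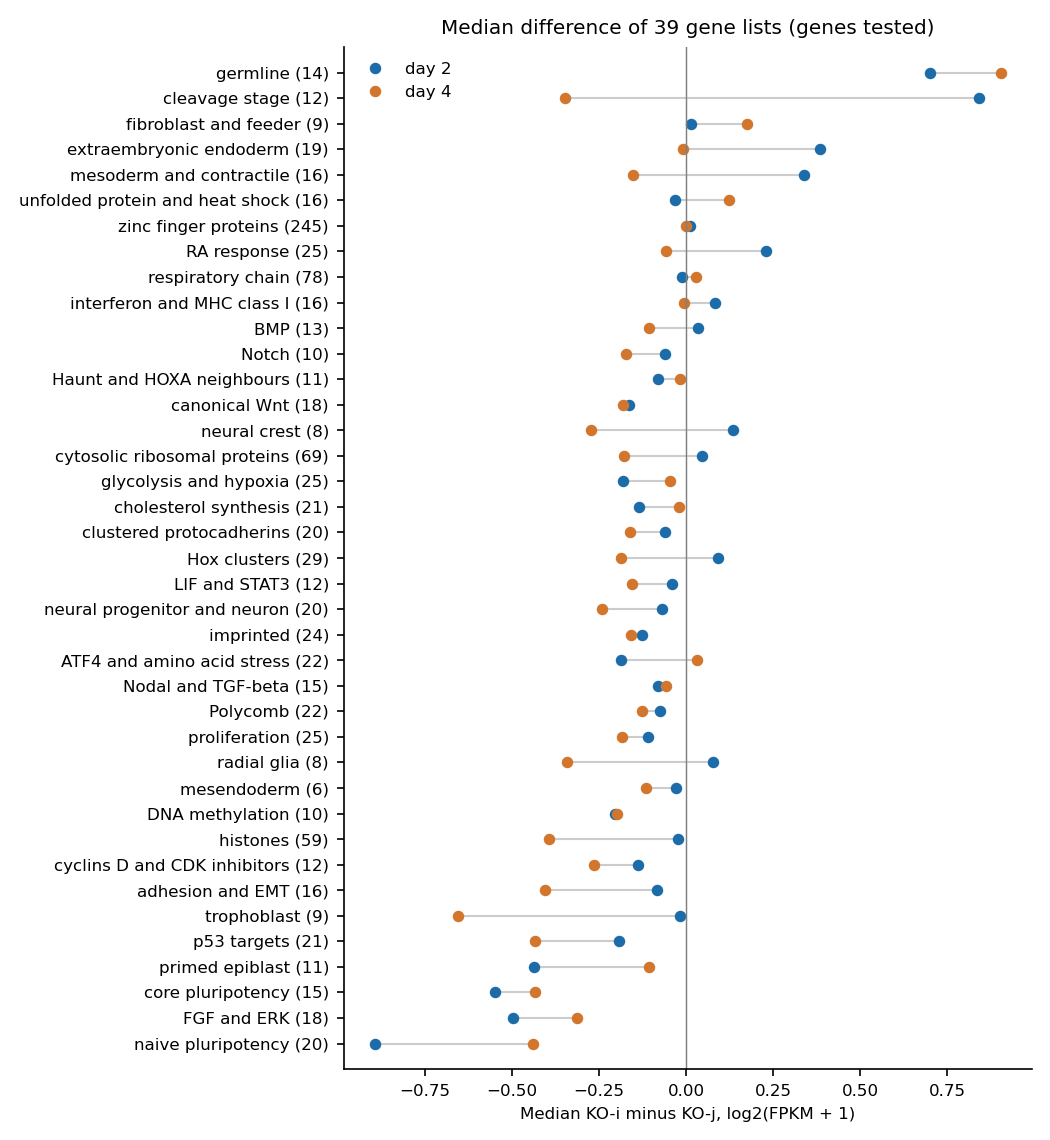
Median difference KO-i minus KO-j on the log2(FPKM + 1) scale (x axis) of 39 gene lists, with the number of genes tested in brackets, at day 2 and day 4 (colours). The naive pluripotency list has the lowest median at day 2 (-0.89) and the germline list the highest at day 4 (+0.90).

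The genes with the smallest p-values included several of other functions. Pet117, a chaperone of cytochrome oxidase assembly (mm9 chromosome 2, 144194719 to 144199073), was listed at 0.00147 and 0.000448 FPKM in KO-i at days 2 and 4, against 10.7 and 13.1 FPKM in KO-j and 8.94 to 16.4 FPKM in the WT libraries (-3.68, SE 0.195, adjusted p = 0.180). Its span lies inside that of Csrp2bp, which read 19.12 and 16.9 FPKM in KO-i against 16.9 and 19.2 FPKM in KO-j. A listed value this near 0 can come from the assignment of reads between overlapping genes, which was not tested. Wdr6, which encodes a WD repeat protein (chromosome 9), read 89.2 and 144 FPKM in KO-i, against 43.8 and 70.2 FPKM in KO-j and 69.1 to 124 FPKM in the WT libraries (+1.02, SE 0.0784, adjusted p = 0.180). In Wdr6 it was KO-j that lay below WT at both days. Ndufs5, a subunit of respiratory complex I, read 88.7 and 91.1 FPKM in KO-i, against 37.3 and 43.6 FPKM in KO-j and 5.32 to 34.8 FPKM in the WT libraries (+1.14, SE 0.0907, adjusted p = 0.180). On the log2 scale the WT libraries spread more than the knockout ones here. WT-1 read 34.8 and 5.32 FPKM at days 2 and 4, and WT-2 16.4 and 28.8 FPKM.

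The other genes higher in KO-i by the same rule were Plekhb2 (chromosome 1), AK136034, Tmem18, AK214512, Tmem176a, Gstm5 and Htra1. Tmem176a, a membrane channel gene, read 2.90 and 14.3 FPKM in KO-i, against 0.152 and 4.49 FPKM in KO-j, and Htra1, a secreted protease gene, 11.4 and 31.1 FPKM in KO-i, against 5.23 and 12.7 FPKM in KO-j. The other genes lower in KO-i were Cndp2, Islr2, Cox6b2, Calcoco2, Pcsk6, Ier5l, Hist1h2af and Cd9. Calcoco2, an autophagy receptor, read 18.0 and 3.24 FPKM in KO-i, against 41.4 and 10.1 FPKM in KO-j, and Pcsk6, a convertase that activates Nodal among other factors, 6.90 and 5.04 FPKM in KO-i, against 17.2 and 13.7 FPKM in KO-j. All 24 had an adjusted p of 0.180.

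Genes that change with time under RA gave a further view, since the WT libraries alone chose them. In WT, 2495 genes rose and 2175 fell from day 2 to day 4 at a limma adjusted p under 0.05 (32.6% of 14323 called). Of those that fell, 2039 were tested between the knockout names, where their median was -0.15 at day 2 and -0.09 at day 4, and 45.2% were lower in KO-i at both days, against 29.2% of all genes. Of those that rose in WT, 2358 were tested, with medians of +0.10 at day 2 and -0.03 at day 4, and 37.7% were higher in KO-i at both days, against 34.1% of all genes. Of the 798 tested genes higher at day 4 in WT by over 1 on the log2 scale, 28.7% were higher in KO-i at both days, below the share of all genes, with medians of +0.19 at day 2 and -0.14 at day 4. Of the 825 lower at day 4 in WT by over 1, 40.6% were lower in KO-i at both days, with medians of -0.19 and -0.16.

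By chromosome, genes of chromosome 1 were higher in KO-i almost along its whole length, and those of chromosome 6 were slightly lower. Over the 517 chromosome 1 genes of at least 5 FPKM, the median was +0.29 at day 2 and +0.31 at day 4, and 368 of them (71.2%) were higher in KO-i at both days, against 34.6% of all 9426 genes. Against the WT mean, the chromosome 1 median was +0.31 and +0.30 in KO-i and +0.02 and -0.02 in KO-j. Chromosome 6 (414 genes) had medians of -0.09 and -0.07, with 46.4% of genes lower at both days, against 31.7% of all. Over both days its median was -0.088, and -0.045 when all genes tested were taken without the 5 FPKM minimum. Against WT, its median was +0.09 and +0.07 in KO-i and +0.20 and +0.15 in KO-j, so both names were above WT there and KO-j by more. Chromosome 14 (359 genes) had medians of +0.10 and +0.08 and chromosome 12 (347 genes) of +0.06 and +0.05. The other 15 autosomes lay between -0.03 and +0.03 at day 2 and between -0.05 and +0.04 at day 4. Between WT-1 and WT-2 the chromosome medians ran from -0.06 to +0.06 at day 2 and from -0.01 to +0.09 at day 4. The highest of the WT values at day 4 was also that of chromosome 1.

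**Figure D4:**
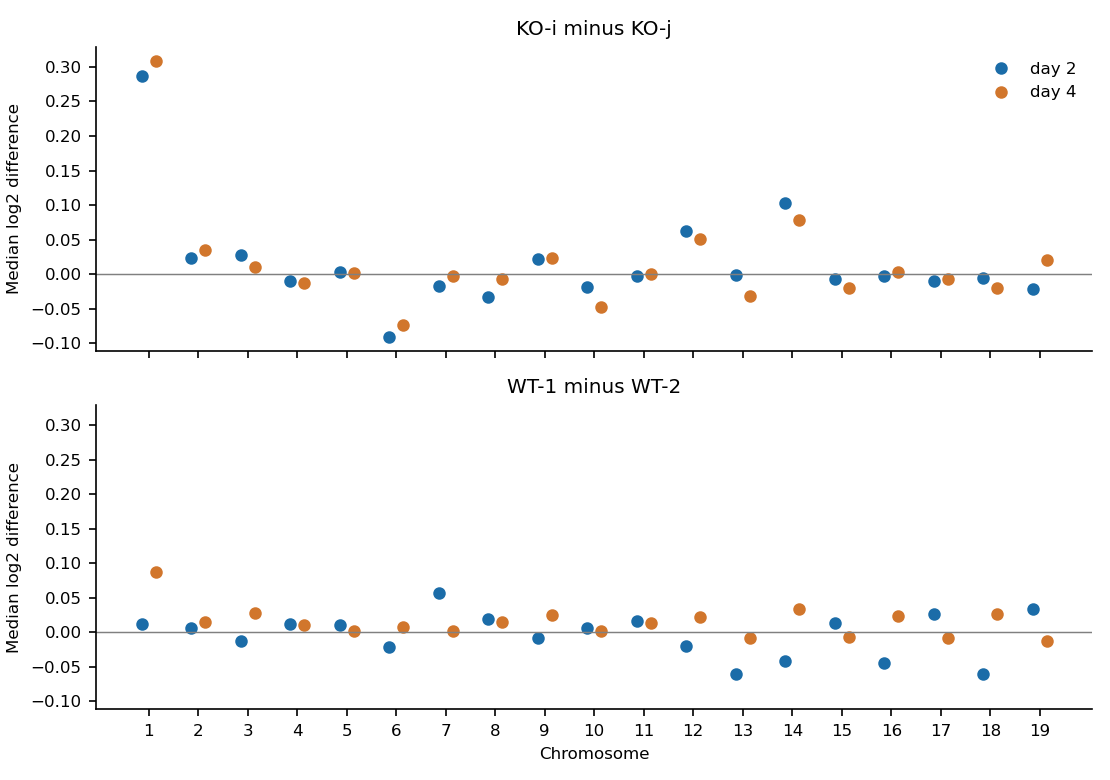
Median log2 difference of the genes of at least 5 FPKM on each autosome (x axis) at day 2 and day 4 (colours), for KO-i minus KO-j (top) and WT-1 minus WT-2 (bottom). Chromosome 1 stands at +0.29 and +0.31 in the upper panel, away from the other autosomes.

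The shift on chromosome 1 ended near its far end. In parts of 20 Mb with at least 10 genes, 8 parts had medians of +0.25 to +0.38 at day 2 and +0.27 to +0.42 at day 4. The last part, from 180 Mb on with 75 genes, had -0.16 and -0.11, and 60% of its genes were lower in KO-i at both days. In this last part KO-i stood at +0.32 and +0.41 against WT, and KO-j at +0.49 and +0.48. In the 8 parts before it KO-j lay between -0.03 and +0.03 at day 2 and between -0.20 and +0.03 at day 4 against WT. KO-i was thus above WT along all measured parts, and KO-j in the last part. Lefty1, described above, lies in this last part. Along chromosome 6, the first part had -0.18 and -0.19, the last -0.21 and -0.17, and the part from 80 to 100 Mb +0.04 and +0.07. Against WT, KO-j stood at +0.28 and +0.21 in the first part, at +0.02 in the part from 80 to 100 Mb at both days, and at +0.28 and +0.27 in the last. Outside chromosome 1, the means of the days of 120 parts ran from -0.18 to +0.21.

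**Figure D5:**
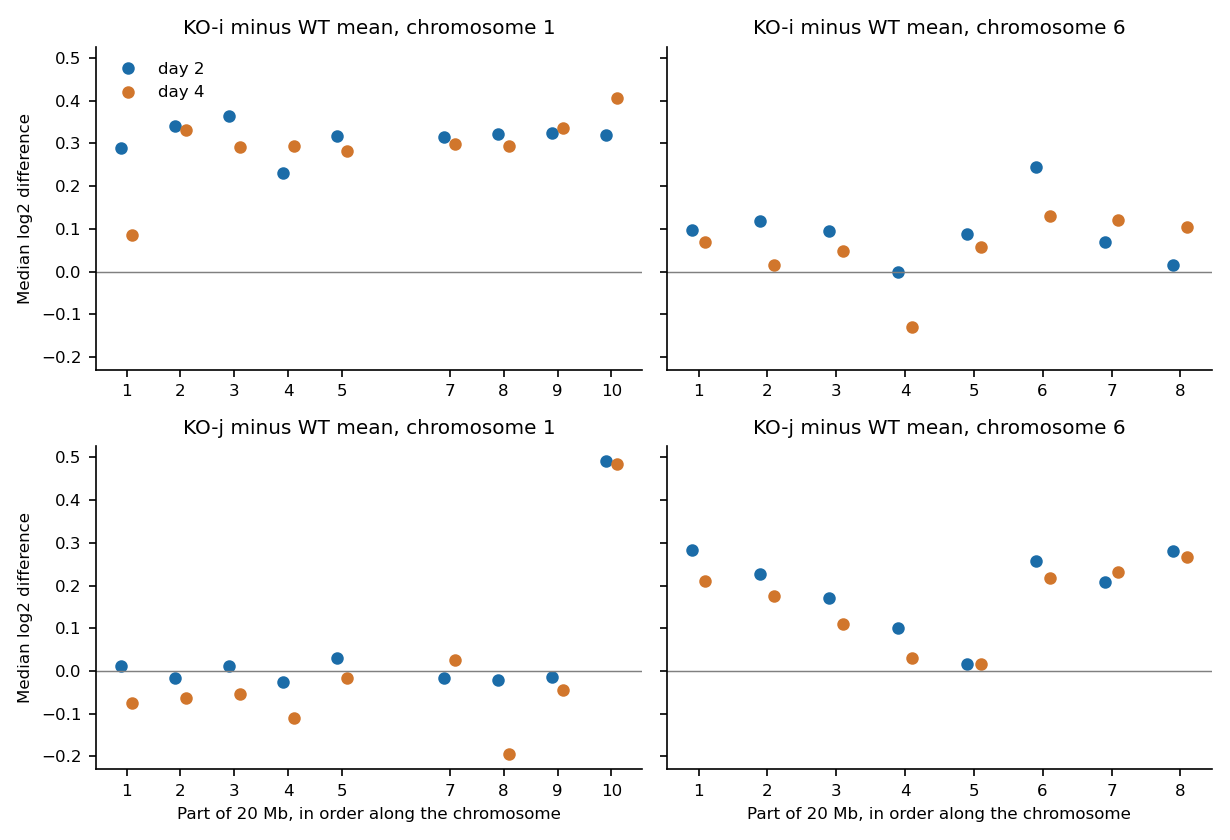
Median log2 difference from the WT mean of genes of at least 5 FPKM in successive 20 Mb parts (x axis, in order along the chromosome; parts under 10 genes left out) of chromosome 1 (left) and chromosome 6 (right), for KO-i (top) and KO-j (bottom) at day 2 and day 4 (colours). KO-i is above 0 in all parts of chromosome 1, KO-j only in the last part clearly so (+0.49 and +0.48).

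The chromosome shifts touch some of the genes given above. Of the 830 genes of at least 5 FPKM higher in KO-i at an unadjusted limma p under 0.05, 245 lay on chromosome 1. That is 47.4% of the 517 chromosome 1 genes, against 8.81% of all 9426 genes. The helicase subunits Mcm3 and Mcm6, both on chromosome 1, were higher in KO-i (147 and 108 FPKM against 124 and 88.7 in KO-j for Mcm3, 111 and 93.4 FPKM against 95.7 and 73.8 in KO-j for Mcm6), though both had a slightly negative difference once genes were centred on their chromosome, while Mcm7 on chromosome 5 was lower (125 and 113 FPKM, against 154 and 138 in KO-j). Peg10 lies in the first part of chromosome 6, and Nanog and H2afj in the part from 120 to 140 Mb, whose median was -0.19 at day 2 and -0.10 at day 4. With chromosome 1 left out, the differences of day 2 and day 4 correlated at r = 0.360 across 8909 genes. Genomic DNA of KO-i and KO-j was not analysed here, so whether the number of copies of these chromosomes differs was not tested.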

How the data were processed

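Poly(A) RNA of 46C cells under RA was sequenced without strand marks, per the labels' protocols. The deposited table holds FPKM per gene for 8 libraries, judged from its values, and the program behind them is not stated in any source used here. Per the submitters' processing notes, the tools named for the series are CASAVA, Bowtie 1.0.0, TopHat2 2.0.11 and MACS 1.4.2 with the build mm9. The other 46 samples were not analysed here. Listed positions count from 0 at the start, judged from 8406 genes whose listed span equals the RefSeq length, and are given here from 1. Depth was estimated from entries of up to 1200 bp whose values fall on the line of a single read, 22 to 57 entries per knockout library, so it is approximate.

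FPKM were taken to log2(FPKM + 1). limma 3.58.1 (R 4.3.3) was fitted to the 4 knockout libraries with day as a block and an intensity trend, and p-values were adjusted by Benjamini-Hochberg over 14273 genes, 1317 of them unnamed loci. The day pairs the libraries by the labels. The fit was tested on simulated data. With 1 library per name and day, the spread within the fit is the change of the KO-i minus KO-j difference between days. The SE and p-values rest on it and on a prior taken across genes. Nothing in the labels says that libraries came from separate cultures, so this spread is that of these particular samples and possibly technical in part. An exact 0 can be a failed estimate. Chromosome medians used genes of at least 5 FPKM in the mean of the 4 libraries. Named genes were the 12 smallest p-values in each direction among genes of at least 5 FPKM with a symbol (the rule takes called genes by size, and none was called), with Klf2, Klf5, Pou3f1 and Haunt, and the 2 members of each described list with the largest difference. Some genes that the rule takes are not reported here. Other genes were named after their values were seen. Members and lists were chosen with earlier results of these data known. Of the 28 genes of the rule, 9 have a listed span that meets another entry, so reads of the pair may be shared. The alternatives were other pseudocounts (0.1 and 5), filters, scalings, a fit over 8 libraries, no block, no trend, the X chromosome, centring on chromosomes and leaving out each library. Sequences come from RefSeq (GRCm38.p6), a build other than that of the positions.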

Additional observations from a re-analysis of the deposited data

Results flagged for a closer look

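Some values had opposite signs at day 2 and day 4, and this difference between the days was not tested; each day has 1 library per name. Medians KO-i minus KO-j that changed sign with day were those of cleavage stage genes (+0.84 at day 2, -0.35 at day 4), extraembryonic endoderm (+0.39, -0.01), mesoderm and contractile genes (+0.34, -0.15), RA response (+0.23, -0.06) and HOX clusters (+0.09, -0.19). Further ones were neural crest (+0.13, -0.27), radial glia (+0.08, -0.34), BMP (+0.03, -0.11), cytosolic ribosomal proteins (+0.04, -0.18) and interferon and MHC class I (+0.08, -0.01). The remaining lists were amino acid stress (-0.19, +0.03), unfolded protein and heat shock (-0.03, +0.12), respiratory chain (-0.01, +0.03) and zinc finger proteins (+0.01, -0.000569). Of the genes named, Lefty1 stood at -3.27 at day 2 and +0.98 at day 4. Zscan4c (+0.84, -0.42), Zscan4f (+0.81, -0.76) and Tagln (+1.63, -0.11) were higher in KO-i at day 2 only, as were Rec8 (+0.68, -0.08), Rarb (+0.51, -0.05) and Hoxa5 (+0.03, -0.25). Pou3f1 (-0.73, +0.12), Tfcp2l1 (-0.53, +0.33) and Hoxa4 (-0.10, +0.17) were lower in KO-i at day 2 only. Csrp2bp stood at +0.17 and -0.17. Id3, an inhibitor of differentiation that BMP switches on, read 17.2 FPKM in KO-i at day 2, against 4.27 FPKM in KO-j, and 88.8 FPKM in KO-i at day 4, against 171 FPKM in KO-j (+1.78, -0.94). KO-i at day 2 is also the library of lowest depth, and the part of depth in these values was not tested.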

How the results depend on the processing

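No gene passed an adjusted p of 0.05 in limma between KO-i and KO-j under any of the 15 alternatives, and the smallest adjusted p ran from 0.0626 (8-library fit) to 0.858 (no replicate block). The count at an unadjusted p under 0.05, 2175 as reported, ran from 365 without the replicate block for day to 2477 in the 8-library fit, with all other settings between these. The 4 fits without 1 knockout library were made on the other 7 libraries, where the difference rests on 1 day alone, the WT libraries give the spread and the lone library is assumed to vary like them, so they say nothing about stability. Between WT-1 and WT-2, 1 gene was called in the 8-library fit too and 0 without the replicate block (smallest adjusted p 1.00). The chromosome 1 median over both days, +0.31, was +0.29 over all genes tested, +0.28 with libraries centred on their median and +0.29 at day 2 alone. That of chromosome 6, -0.09, was -0.045 over all genes tested, -0.11 with centred libraries and -0.073 at day 4 alone. Chromosome 12 (+0.06) had +0.054, +0.038 and +0.051 in the same settings, and chromosome 14 (+0.09) had +0.065 with centred libraries. Mcm3 and Mcm6 were at -0.02 and -0.01 when genes were centred on their chromosome. Centring genes on their chromosome turned the medians over both days of the RA response, mesoderm, unfolded protein and respiratory chain lists negative, centring libraries did so for the respiratory chain, and quantile normalization for zinc finger genes; the other lists kept their sign under these scalings and a pseudocount of 0.1. Of 109 genes followed, 15 changed sign under some alternative. This count includes the fits without 1 library, which return the difference of 1 day, so genes of opposite sign at the 2 days enter it. Mcm3, Mcm6 and Sohlh2, of the same sign at both days, changed sign under a scaling. Depth limits low genes most, since 1 FPKM rests on about 9.05 reads per kilobase in KO-i at day 2.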
